A study of Mus musculus with 8 samples.

Results

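Macrophages that live in skeletal muscle carry surface receptors for folate, hyaluronan, mannosylated proteins and haemoglobin, and they make the complement protein C1q. The 10 genes described here were chosen by name, with earlier results of these data known. They are 8 resident macrophage markers (Folr2, Lyve1, Mrc1, Cd163, C1qa, C1qb, C1qc and Adgre1) and 2 genes of phagocytes more generally. These 2, Cd68 and Lgals3, are the genes with which the markers were compared. The gene lists used below were chosen in the same way, so shares of genes passing describe these sets and test nothing. All 10 had a row in each of the 8 count tables, all 10 passed the filter on low counts, and they are 10 of 23282 rows and of 13174 tested genes. The tissue was gastrocnemius, a muscle of the calf, from mice of strain C57BL/6 with a listed age of 4 weeks. Messenger RNA was read from transcript 3' ends, so that a count does not grow with transcript length.

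The RP group (2 libraries) was from mice injected under the skin with LLC cells, a lung carcinoma line of mice, and then dosed by mouth each day for 2 weeks with an extract of the peony Paeonia lactiflora made in 30% ethanol (100 mg/kg). The Control group (3 libraries) was from mice with the same tumour given 200 µl of water, and the Normal group (3 libraries) was from mice injected with saline and given water. The tumour had grown for 2 weeks before dosing, and the tumour-bearing mice were regrouped by tumour size at that point. Whether every library came from its own mouse is not stated in the labels, so the p-values measure spread among these samples only, which may be technical. The titles and the table names of the 6 Normal and Control samples conflict, since each table carries the other group's name. Groups follow the titles here and are called Control-titled and Normal-titled, and if the table names hold instead, the sign of every Control-titled over Normal-titled change turns round and the comparisons of RP with them exchange places.

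Libraries held 9528011 to 12333767 counts. Haemoglobin genes took 0.862 and 3.83% of the counts in RP 1 and RP 2, 1.41 to 1.61% in the Control-titled and 4.57 to 19.7% in the Normal-titled libraries. Acta1, the skeletal muscle actin gene, was at 30804 and 30179 CPM (a gene's counts relative to the library's total, after TMM scaling) in RP 1 and RP 2, 25523 to 28928 CPM in the Control-titled and 17211 to 22154 CPM in the Normal-titled libraries. Acta1 passed the test described below in no comparison. Of the 12 skeletal muscle markers tested, Acta1 among them, 3 rose and 1 fell in Control-titled over Normal-titled, at a median log2 change of -0.061. Of all tested genes, 4.99% rose and 5.45% fell there. In RP over Normal-titled 1 of the 12 rose, where 1.67% of all tested genes did, and in RP over Control-titled 0 passed. In whole muscle, fewer cells of a type and less RNA per cell cannot be told apart.

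C1q starts the classical complement pathway when it binds antibody or dying cells, and it is built from the products of C1qa, C1qb and C1qc. FOLR2, LYVE1, the mannose receptor MRC1 and the haemoglobin scavenger CD163 are typical of macrophages that sit beside vessels and in the connective tissue around muscle fibres. CD68 is a lysosomal protein of phagocytes, and galectin-3, the product of Lgals3, is a sugar-binding protein that macrophages and other cells make in injured muscle. LYVE1 is also carried by lymphatic endothelium.

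Of the 10 genes, 7 had a promoter in the RefSeq set used (build GRCm38.p6, 250 bases before to 50 after a start). The windows of Folr2 and Lgals3 are shown because these genes passed the test below, and those of C1qb and C1qc because these genes are neighbours on chromosome 4 and chains of 1 protein. Sequences run 5' to 3' on the strand of the gene, all on the minus strand except Lgals3. Capitals mark the letters GAGGAA, the core bound by the myeloid factor PU.1, TGANTCA, bound by AP-1, and TGCTGAC, a MAF half-site, each on either strand.
Folr2, start 1 (chr7:101857141-101857440): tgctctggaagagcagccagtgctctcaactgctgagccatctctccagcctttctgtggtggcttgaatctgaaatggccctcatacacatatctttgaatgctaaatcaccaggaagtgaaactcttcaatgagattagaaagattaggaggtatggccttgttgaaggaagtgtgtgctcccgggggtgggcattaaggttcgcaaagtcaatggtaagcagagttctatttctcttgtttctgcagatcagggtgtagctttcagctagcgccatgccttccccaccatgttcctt
Folr2, start 2 (chr7:101845282-101845581): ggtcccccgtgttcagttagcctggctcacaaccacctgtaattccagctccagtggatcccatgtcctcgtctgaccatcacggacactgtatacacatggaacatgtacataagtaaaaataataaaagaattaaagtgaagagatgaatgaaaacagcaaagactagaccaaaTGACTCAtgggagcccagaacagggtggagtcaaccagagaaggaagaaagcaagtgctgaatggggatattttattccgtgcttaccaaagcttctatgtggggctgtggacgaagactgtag
Lgals3 (chr14:47373610-47373909): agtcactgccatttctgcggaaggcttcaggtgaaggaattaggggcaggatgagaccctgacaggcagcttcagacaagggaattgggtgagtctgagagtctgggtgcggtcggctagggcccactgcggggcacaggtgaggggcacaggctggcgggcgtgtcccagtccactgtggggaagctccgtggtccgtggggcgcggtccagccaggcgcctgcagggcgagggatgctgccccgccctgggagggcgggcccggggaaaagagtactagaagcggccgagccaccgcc
C1qb (chr4:136886151-136886450): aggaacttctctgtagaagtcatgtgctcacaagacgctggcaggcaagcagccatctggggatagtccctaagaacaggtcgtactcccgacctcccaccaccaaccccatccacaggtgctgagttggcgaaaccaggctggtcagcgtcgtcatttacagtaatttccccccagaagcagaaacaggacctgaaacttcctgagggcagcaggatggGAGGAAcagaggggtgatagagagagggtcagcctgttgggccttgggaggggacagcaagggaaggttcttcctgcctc
C1qc (chr4:136892865-136893164): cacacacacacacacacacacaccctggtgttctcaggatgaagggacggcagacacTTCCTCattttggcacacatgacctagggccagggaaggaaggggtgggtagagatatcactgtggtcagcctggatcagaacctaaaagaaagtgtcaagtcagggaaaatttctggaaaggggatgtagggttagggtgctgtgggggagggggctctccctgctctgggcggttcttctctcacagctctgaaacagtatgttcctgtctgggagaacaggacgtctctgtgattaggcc
C1qb and C1qc each held 1 GAGGAA, the second Folr2 start held 1 TGANTCA, and the first Folr2 start and Lgals3 held none of these letters. Among 32851 windows of 300 bases in the same set, 28.3% held GAGGAA, 7.81% TGANTCA and 4.67% TGCTGAC, and the motifs did not overlap in the windows printed. Of the windows not printed, that of Mrc1 held 3 GAGGAA and that of Cd68 held 2 GAGGAA and 2 TGANTCA, while that of Cd163 held no match. These matches describe the letters and were not tied to any change in level.

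Only 2 of the 10 genes differed between the Control-titled and the Normal-titled libraries, in opposite directions: Folr2 was higher and Lgals3 was lower in the Control-titled group. The other 8 did not pass, their groups overlapped, and their log2 changes lay between -0.60 and 0.55. In edgeR's quasi-likelihood test, at an adjusted p (Benjamini-Hochberg) under 0.05, 10.4% of all tested genes passed in this comparison, 4.99% higher and 5.45% lower, and 2 of 10 is too few to read against that share. The groups did not overlap for 31.3% of tested genes. The median log2 change was 0.11 over the 10 genes and 0.00043 over all tested genes.

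**Figure D1:**
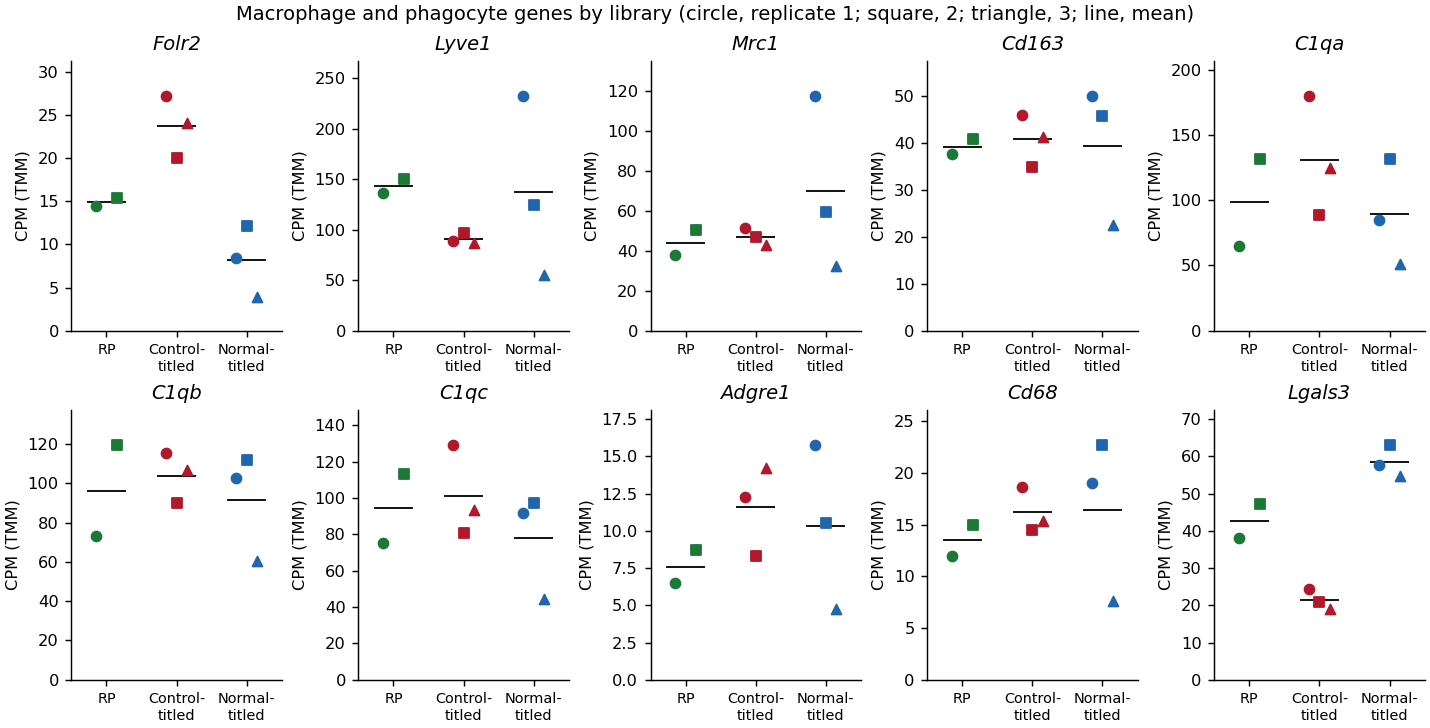
Level of each gene in each library as CPM after TMM scaling (vertical axes start at 0), with groups along the horizontal axis, symbols for replicates and a line at the group mean. Folr2 separates the 3 groups, with 20.0 to 27.2 CPM in the Control-titled libraries against 3.88 to 12.2 CPM in the Normal-titled ones, Lgals3 does so in the reverse order, and the other genes overlap between the Control-titled and Normal-titled groups.

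Folr2 encodes folate receptor beta, a folate-binding receptor of resident macrophages. It was at 14.4 and 15.4 CPM in RP 1 and 2, at 27.2, 20.0 and 24.1 CPM in Control 1, 2 and 3, and at 8.37, 12.2 and 3.88 CPM in Normal 1, 2 and 3. All 3 Control-titled libraries stood above both RP libraries, and both of these stood above all 3 Normal-titled libraries. The raw counts behind these levels were 134 and 150 in RP, 200 to 308 in the Control-titled and 40 to 127 in the Normal-titled libraries. The group means were 23.7 ± 3.59 CPM in the Control-titled and 8.14 ± 4.14 CPM in the Normal-titled libraries (SD, n = 3 each). The Control-titled level was 2.91-fold the Normal-titled level (log2 change 1.54 ± 0.298 (SE), adjusted p = 0.00553 in edgeR). Folr2 passed in all 17 alternative analyses of this comparison, with log2 changes of 1.21 to 1.95. Folr2 (chromosome 7, 101839988 to 101857194, build mm10) overlaps exons of Gm10602, and because the strand counted is not given in the sources used here, reads of the 2 genes could not be told apart.

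Lgals3 (chromosome 14, 47367751 to 47386160) ran the other way. It was at 38.04 and 47.3 CPM in RP 1 and 2, at 24.3, 20.9 and 18.9 CPM in Control 1, 2 and 3, and at 57.7, 63.0 and 54.6 CPM in Normal 1, 2 and 3. The 3 groups did not overlap, and their order was the reverse of that of Folr2. The Control-titled libraries averaged 21.4 ± 2.75 CPM and the Normal-titled libraries 58.4 ± 4.22 CPM (SD, n = 3 each), at a log2 change of -1.45 ± 0.156 (SE), for an adjusted p = 1.07e-04 in edgeR. It passed in all 17 alternatives, with log2 changes of -1.55 to -1.37.

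The 3 C1q genes lie side by side on the minus strand of chromosome 4 (C1qb from 136880129 to 136886187, C1qc from 136889804 to 136893065 and C1qa from 136895917 to 136898803) and did not separate the groups. C1qa was at 64.7 and 132 CPM in RP 1 and 2, at 180, 88.7 and 125 CPM in Control 1, 2 and 3, and at 85.1, 132 and 51.3 CPM in Normal 1, 2 and 3. C1qb was at 73.0 and 119 CPM in RP, at 115, 89.7 and 106 CPM in the Control-titled and at 102, 112 and 60.5 CPM in the Normal-titled libraries. C1qc was at 75.3 and 113 CPM in RP, at 129, 80.6 and 93.5 CPM in the Control-titled and at 91.9, 97.3 and 44.6 CPM in the Normal-titled libraries. For each chain, RP 1 was the lower RP library, Control 2 the lowest Control-titled and Normal 3 the lowest Normal-titled library, which held for 10, 7 and 10 of the 10 genes. The pairwise Pearson r of their log2 CPM over the 8 libraries was 0.92 to 0.94, and like values were seen beyond the chains, at 0.93 for Cd163 with Cd68, 0.88 for Cd163 with C1qc and 0.87 for C1qb with Cd68. These points share libraries and groups. The ratio of C1qc to C1qb stayed between 0.737 and 1.12 in the 8 libraries, and that of C1qa to C1qb between 0.831 and 1.56, the highest in Control 1. The log2 change of the Control-titled over the Normal-titled libraries was 0.55 for C1qa (95% interval -0.17 to 1.28), 0.18 for C1qb (-0.32 to 0.68) and 0.38 for C1qc (-0.21 to 0.96), with edgeR adjusted p of 0.325, 0.670 and 0.410. All 3 intervals include no change.

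Lyve1 and Mrc1, like Cd163 and Adgre1 but unlike the C1q chains, were highest in Normal 1. Lyve1 (chromosome 7, 110850607 to 110863239) was at 136 and 150 CPM in RP 1 and 2, at 88.8, 97.0 and 86.4 CPM in Control 1, 2 and 3, and at 232, 124 and 55.0 CPM in Normal 1, 2 and 3. Mrc1 (chromosome 2, 14229392 to 14332057) was at 37.8 and 50.4 CPM in RP, at 51.3, 47.0 and 42.9 CPM in the Control-titled and at 118, 59.7 and 32.5 CPM in the Normal-titled libraries. For both genes the Normal-titled libraries spanned the whole Control-titled range, with the highest library 4.21 times the lowest for Lyve1 and 3.62 times for Mrc1. The Control-titled over Normal-titled log2 change was -0.60 ± 0.346 (SE) for Lyve1 and -0.57 ± 0.327 (SE) for Mrc1, with edgeR adjusted p of 0.298 and 0.291. Without Normal 3, which held the lowest level of both, these became -0.98 and -0.92 with adjusted p of 0.00784 and 0.0199, so that both then passed as lower in the Control-titled group. The microRNA gene Mir511 lies within Mrc1.

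Cd163 (chromosome 6, 124304656 to 124330527) was at 37.7 and 40.8 CPM in RP 1 and 2, at 46.1, 35.0 and 41.3 CPM in Control 1, 2 and 3, and at 50.03, 45.8 and 22.5 CPM in Normal 1, 2 and 3. It averaged 39.3 ± 2.19 CPM in RP (SD, n = 2), 40.8 ± 5.58 CPM in the Control-titled and 39.4 ± 14.8 CPM in the Normal-titled libraries (SD, n = 3 each). The Control-titled over Normal-titled log2 change was 0.049 (95% interval -0.46 to 0.56). Its 3' end shares short stretches with Ppip5k1 and Wars2, where reads may be counted for either. Adgre1, which encodes the mouse macrophage antigen F4/80 (chromosome 17, 57358691 to 57483527), was among the lowest counts of the group, 49 to 175 per library. It was at 6.47 and 8.74 CPM in RP, at 12.3, 8.30 and 14.2 CPM in the Control-titled and at 15.7, 10.53 and 4.76 CPM in the Normal-titled libraries. Cd68 (chromosome 11, 69664213 to 69666153) was at 12.0 and 15.01 CPM in RP, at 18.7, 14.5 and 15.4 CPM in the Control-titled and at 19.1, 22.7 and 7.67 CPM in the Normal-titled libraries. The Control-titled over Normal-titled log2 change was 0.16 (-0.58 to 0.91) for Adgre1 and -0.026 (-0.68 to 0.62) for Cd68, and neither passed.

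Spread was uneven between the groups. The SD of log2 CPM within a group, taken as the median over the 10 genes, was 0.26 in RP, 0.19 in the Control-titled and 0.75 in the Normal-titled libraries, where the median over all tested genes was 0.19 in RP, 0.18 in the Control-titled and 0.29 in the Normal-titled libraries. Normal 3 was the lowest of the Normal-titled libraries for all 10 genes, whereas 36.6% of all tested genes were lowest there. RP 1 was the lower RP library for all 10, where 49.6% of tested genes were. Normal 3 also held the highest haemoglobin share, 19.7%, and the lowest summed level of the fibroblast and tendon markers, and the part of either in the low values was not tested.

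By the titles, RP over Control-titled compares extract-treated with water-treated tumour-bearing mice. If the table names hold instead, it compares the extract-treated mice with saline-injected mice. Lgals3 rose to 42.7 ± 6.55 CPM in RP (SD, n = 2), against 21.4 ± 2.75 CPM in the Control-titled libraries (SD, n = 3), a 2.00-fold difference (log2 change 1.00 ± 0.170 (SE), adjusted p = 0.0403 in edgeR). It was the only one of the 10 to pass, where 0.175% of tested genes did, 0.144% higher. The call was close to the threshold. Lgals3 kept a positive log2 change of 0.83 to 1.14 in the 17 alternatives but passed in 9 of them. It was lost without RP 2 (adjusted p = 0.187), without Control 1, 2 or 3 (0.0708, 0.184 and 0.246) and without Normal 2 (0.0769), and also with the replicate block (0.0998), with limma-voom (0.0652) and with a mean CPM of at least 5 (0.0662).

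Neutrophil transcripts stood beside this result. S100a8, a calprotectin gene of neutrophils, was at 15.4 and 233 CPM in RP 1 and 2, at 2.82 to 8.23 CPM in the Control-titled and at 492 to 948 CPM in the Normal-titled libraries, and it passed as higher in RP over Control-titled (log2 change 4.53, adjusted p = 0.0403, up to 0.291 when libraries were left out). Both RP libraries were above every Control-titled library for S100a8 as well as for Lgals3. The groups did not overlap for 5 of the 12 neutrophil markers tested, where 31.7% of all tested genes did not overlap. The summed level of the 15 neutrophil markers was 46.9 and 529 CPM in RP 1 and 2, 25.3 to 47.2 CPM in the Control-titled and 1001 to 2059 CPM in the Normal-titled libraries. Of the 12 neutrophil markers tested, 2 rose and 0 fell in RP over Control-titled (S100a8 and its partner S100a9). Of all tested genes, 0.144% rose. The median log2 change of the 12 was 4.21. Without RP 1, 6 rose at a median of 5.15, and without RP 2, 0 rose at a median of 0.28. None rose without Normal 2 or without any 1 of the 3 Control-titled libraries. Elane and Mpo, granule genes of early neutrophils, had no count in RP or Control-titled libraries. The part of these cells in the Lgals3 levels was not tested.

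None of the 8 resident markers passed in RP over Control-titled, nor did Cd68. Folr2 averaged 14.9 ± 0.695 CPM in RP (SD, n = 2), below every Control-titled library, at a log2 change of -0.67 ± 0.327 (SE), for an adjusted p = 0.574. Lyve1 averaged 143 ± 9.77 CPM in RP and 90.7 ± 5.55 CPM in the Control-titled libraries, and its groups did not overlap either, at a log2 change of 0.65 ± 0.382 (SE), for an adjusted p = 0.661. When RP and Control-titled libraries alone were fitted, Lyve1 passed (adjusted p = 0.0310), and the genes passing numbered 119 in place of 23. The groups did not overlap for 3 of the 10 genes, Folr2, Lyve1 and Lgals3, where 31.7% of tested genes did not overlap. The C1q chains had log2 changes of -0.42 (95% interval -1.24 to 0.40) for C1qa, -0.11 (-0.67 to 0.45) for C1qb and -0.098 (-0.75 to 0.55) for C1qc.

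Against the Normal-titled libraries, no gene of the 10 passed in RP, where 2.5% of tested genes did, 1.67% higher and 0.835% lower. In edgeR 2 of the 10 had an unadjusted p under 0.05, as did 2254 of the 13174 tested genes. That is too few members to read against that share. DESeq2 and limma-voom also called none of the 10. Folr2 was at 14.9 ± 0.695 CPM in RP (SD, n = 2) and 8.14 ± 4.14 CPM in the Normal-titled libraries (SD, n = 3), at a log2 change of 0.87 ± 0.332 (SE), for an adjusted p = 0.193. It passed when no filter on low counts was applied (adjusted p = 0.0425). Lgals3 was at 42.7 ± 6.55 CPM in RP and 58.4 ± 4.22 CPM in the Normal-titled libraries, at a log2 change of -0.45 ± 0.171 (SE), for an adjusted p = 0.189. The groups did not overlap for these 2 genes, where 30.8% of tested genes did not overlap. Mrc1 had a log2 change of -0.67 in RP over Normal-titled and passed as lower without Normal 3 (-0.99, adjusted p = 0.0454). Each pair of these comparisons shares a group of libraries.

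**Figure D2:**
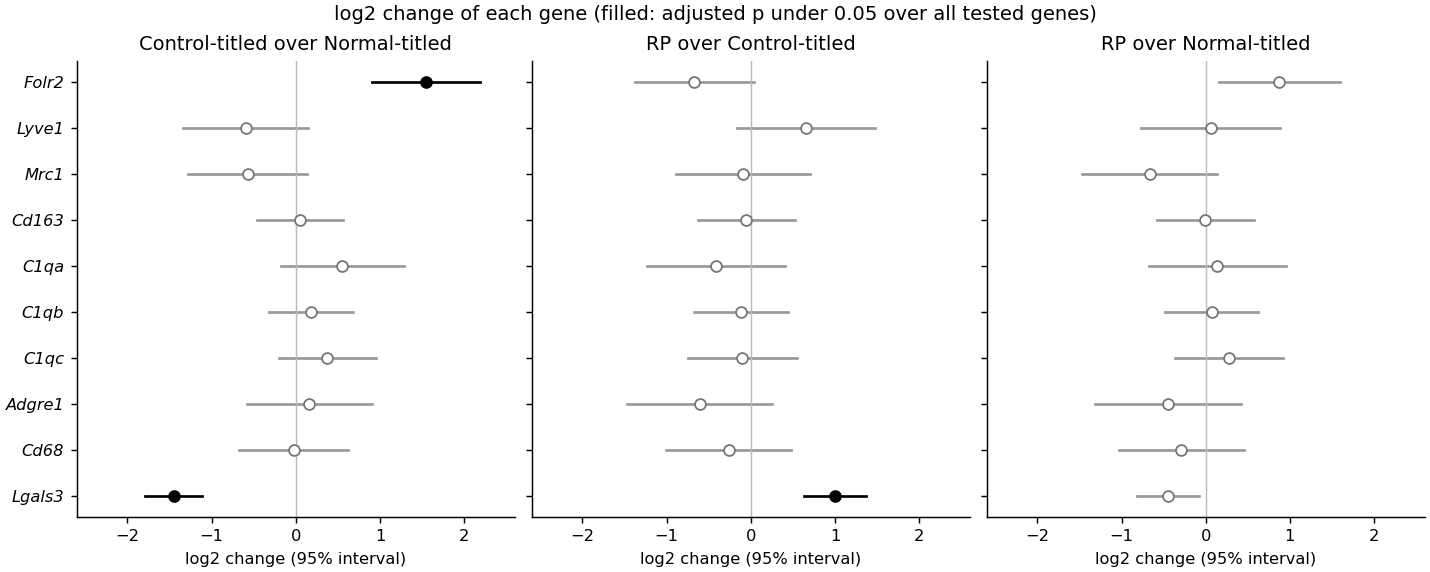
log2 change of each gene in the 3 comparisons (horizontal axis), with points for the estimate, lines for the 95% interval and filled points for an adjusted p under 0.05 over all tested genes in edgeR. Folr2 at 1.54 and Lgals3 at -1.45 pass in Control-titled over Normal-titled, Lgals3 at 1.00 passes in RP over Control-titled, and none passes in RP over Normal-titled.

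The balance between resident markers and the 2 phagocyte genes was compared as the ratio of their levels within each library, which removes library scaling. Folr2 stood at 0.380 and 0.326 times the level of Lgals3 in RP 1 and 2, at 1.12, 0.957 and 1.27 times in Control 1, 2 and 3, and at 0.145, 0.193 and 0.0710 times in Normal 1, 2 and 3. The ratio was 8.81-fold higher in the Control-titled than in the Normal-titled libraries and 0.318 times the Control-titled ratio in RP. C1qa stood at 1.70 and 2.79 times Lgals3 in RP, at 7.39, 4.24 and 6.62 times in the Control-titled and at 1.48, 2.10 and 0.938 times in the Normal-titled libraries. Control-titled libraries thus held the highest ratio of both genes to Lgals3, without overlap.

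Over Lgals3, 8 of 8 resident markers had a higher mean log2 ratio in the Control-titled than in the Normal-titled libraries, by 2.11-fold (Mrc1) to 8.81-fold (Folr2), and the groups did not overlap for 7 of 8, Lyve1 being the exception. In RP, 8 of 8 ratios to Lgals3 lay below the Control-titled ones without overlap, at 0.318 (Folr2) to 0.789 (Lyve1) times. The 8 ratios share Lgals3 as their denominator, so its own difference, which had no overlap in either comparison, enters all of them. Levels did not overlap for 31.3% of tested genes in Control-titled over Normal-titled, 31.7% in RP over Control-titled and 30.8% in RP over Normal-titled. The share of all genes was not computed for ratios, so these counts say little about the resident markers. Over Cd68, only the ratio of Folr2 separated the Control-titled from the Normal-titled libraries (2.98-fold higher), and the other 7 overlapped, at 0.712 (Mrc1) to 1.40 (C1qa) times. In RP over Control-titled, the ratios to Cd68 did not overlap for Lyve1 (1.89-fold higher), Cd163 (1.16-fold higher) and Folr2 (0.761 times). In RP over Normal-titled, the groups did not overlap for 3 of 8 ratios to Lgals3 (Folr2, C1qb and C1qc) and 2 of 8 to Cd68 (Folr2 and C1qc). By a 2-sided exact permutation test, 3 against 3 libraries cannot go below p = 0.1 and 2 against 3 cannot go below 0.2, so none of these ratios could pass a threshold of 0.05. The smallest p adjusted over the 16 ratios was 0.2 in Control-titled over Normal-titled, 0.291 in RP over Control-titled and 0.64 in RP over Normal-titled.

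**Figure D3:**
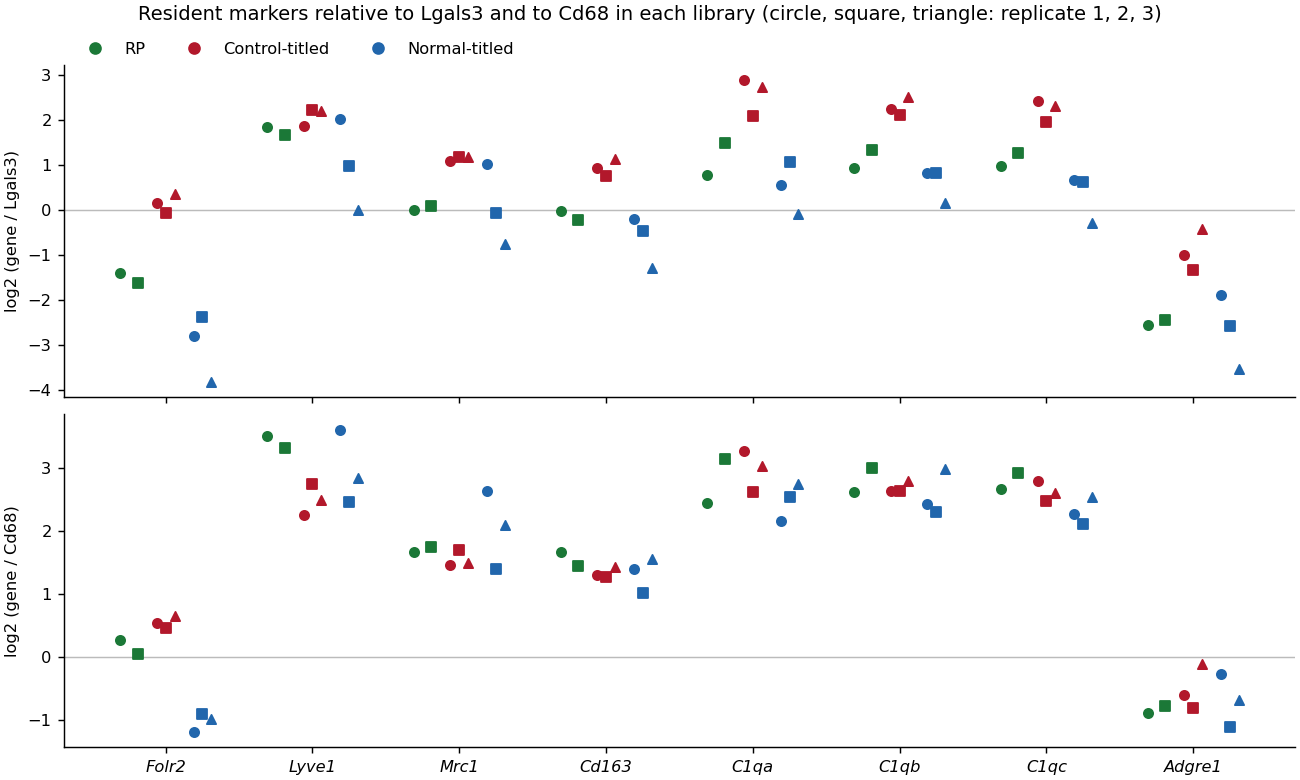
log2 ratio of each resident marker to Lgals3 (upper panel) and to Cd68 (lower panel) in each library, with colours for groups and symbols for replicates. Over Lgals3 the Control-titled libraries lie highest, apart from Lyve1, where Normal 1 lies within their range, and over Cd68 only Folr2 separates Control-titled from Normal-titled libraries.

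Lgals3 itself was at 3.18 and 3.15 times the level of Cd68 in RP 1 and 2, at 1.30, 1.44 and 1.23 times in Control 1, 2 and 3, and at 3.02, 2.78 and 7.13 times in Normal 1, 2 and 3. The 2 phagocyte genes therefore did not move together. Against Lgals1, which encodes galectin-1, Lgals3 was at 0.123 and 0.158 times in RP, at 0.0713, 0.0551 and 0.0552 times in the Control-titled and at 0.348, 0.255 and 0.296 times in the Normal-titled libraries, and here too the 3 groups did not overlap.

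Other genes of resident macrophages were read from a list of 25, of which 22 were tested. In Control-titled over Normal-titled, 2 of the 22 rose and 0 fell, and the median log2 change of the list was 0.29. The 2 are 9.09% of the list, where 4.99% of all tested genes rose and 10.4% passed in either direction. Without Normal 1, 4 rose, and 1 fell without Normal 3 or with DESeq2, with medians of 0.12 to 0.50 over the alternatives. Both that rose are typical of resident macrophages: Cbr2, a carbonyl reductase gene, was at 80.5 and 119 CPM in RP 1 and 2, at 96.2 to 128 CPM in the Control-titled and at 31.7 to 51.7 CPM in the Normal-titled libraries (log2 change 1.27, adjusted p = 0.00234 in edgeR). Cd209f, a C-type lectin gene, was at 4.31 and 7.20 CPM in RP, at 11.4 to 12.8 CPM in the Control-titled and at 2.33 to 4.59 CPM in the Normal-titled libraries (log2 change 1.68, adjusted p = 0.00276). Their 3' ends share sequence with Gm11771 and Cd209g. Cbr2 was also the only gene of the list to rise in RP over Normal-titled (log2 change 1.16, adjusted p = 0.0186, lost without RP 2 at 0.150), and 0 of 22 passed in RP over Control-titled. Csf1r, the receptor that keeps macrophages alive, was at 66.6 and 73.0 CPM in RP, at 74.0 to 94.5 CPM in the Control-titled and at 37.4 to 82.8 CPM in the Normal-titled libraries, and it did not pass in any of the 3 comparisons. Marco had no count in RP or Control-titled libraries.

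Among genes of phagocytosis and of the phagocyte lysosome, 0 of 24 rose and 4 fell in Control-titled over Normal-titled (median log2 change -0.30). The 4 are 16.7% of the list, where 5.45% of all tested genes fell and 10.4% passed in either direction. The count depended on the libraries: without Normal 3, 7 fell, without Normal 1, 2 rose and 3 fell, without Control 3, 2 fell, and without Normal 2, Control 1 or Control 2, 1 fell. DESeq2 gave 6 lower. Gpnmb, a glycoprotein of lipid-laden phagocytes, was at 6.47 and 5.24 CPM in RP, at 4.97 to 6.40 CPM in the Control-titled and at 12.4 to 23.9 CPM in the Normal-titled libraries (log2 change -1.56, adjusted p = 0.00238). It also fell in RP over Normal-titled (-1.54, adjusted p = 0.0171), although not without RP 1 or without RP 2 (the highest adjusted p was 0.128). The Fc receptor gene Fcgr4 fell as well (-1.82, adjusted p = 0.0418), as did Cd36, a fatty acid transporter that muscle and endothelium also carry (-0.72, adjusted p = 0.0309). Ctsd, the gene of cathepsin D, a lysosomal protease, was the fourth (-0.60, adjusted p = 0.0395). These 3 no longer passed when certain libraries were left out, with adjusted p of up to 0.129 for Fcgr4, 0.146 for Cd36 and 0.163 for Ctsd, and Ctsd was also lost with upper-quartile scaling. No gene of the 24 passed in RP over Control-titled, although 1 fell with DESeq2 and 1 without Normal 3.

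Of the complement genes other than C1q, 1 of 17 tested (5.88%) rose and 0 fell in Control-titled over Normal-titled. Of all tested genes, 4.99% rose and 10.4% passed in either direction. The median log2 change of the list was 0.030. Without Normal 3, 1 rose and 2 fell at a median of -0.20, without Normal 1, 2 rose at a median of 0.26, and without Normal 2 or any 1 of the Control-titled libraries none passed. DESeq2 and upper-quartile scaling each gave 2 higher. The gene that rose, Cd55, encodes a complement inhibitor of the cell surface (log2 change 0.76, adjusted p = 0.0271, up to 0.104 when libraries were left out). Its 3' end shares sequence with Cd55b. None passed in either RP comparison, although 2 fell in RP over Normal-titled without Normal 3. C3, the central complement component, was at 80.1 and 138 CPM in RP, at 85.2 to 135 CPM in the Control-titled and at 63.9 to 155 CPM in the Normal-titled libraries.

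Of the genes of monocytes and inflammatory macrophages, 0 of 18 rose and 6 fell in Control-titled over Normal-titled, with a median log2 change of -1.20, and neutrophil markers fell between the same libraries (11 of 12 tested). The 6 are 33.3% of the list, where 5.45% of all tested genes fell and 10.4% passed in either direction. Without Normal 3, 10 fell, without Normal 2 or Control 2, 3 fell, without Control 3, 4 fell, and without Normal 1, 1 rose and 7 fell. Chil3, whose 3' end shares sequence with Chil4, was at 0.216 and 2.06 CPM in RP, at 0 to 0.265 CPM in the Control-titled and at 12.4 to 17.5 CPM in the Normal-titled libraries. The others that fell were the cytokine gene Il1b (-4.53), the matrix gene Thbs1 (-2.89), Ifitm6 (-1.62), the integrin gene Itgam (-1.26) and Ly6c2 (-1.02), a monocyte surface antigen whose 3' end shares sequence with Ly6c1. Exons of Il1b, Thbs1, Itgam, Ctsd and Cd55 overlap those of other annotated genes, whose reads could not be told apart from theirs. Neutrophils carry Chil3, Il1b and Itgam too, and platelets carry Thbs1. When libraries were left out, Ifitm6, Itgam and Ly6c2 were lost, with adjusted p of up to 0.138, 0.0645 and 0.0538. Thbs1, Ifitm6 and Chil3 also fell in RP over Normal-titled (-2.54, -2.82 and -3.73), of which Thbs1 and Ifitm6 were lost without Normal 2, RP 1 or RP 2 (adjusted p of up to 0.275 and 0.256). No gene of the 18 passed in RP over Control-titled, where RP 2 held 12.6 CPM of Il1b, RP 1 held 0.862 CPM and the Control-titled libraries 0.400 to 0.970 CPM. Of the 6 genes tested from the galectin list, Lgals1 rose in Control-titled over Normal-titled (log2 change 0.83, adjusted p = 0.00569), opposite in sign to Lgals3, and it passed in neither RP comparison.

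**Figure D4:**
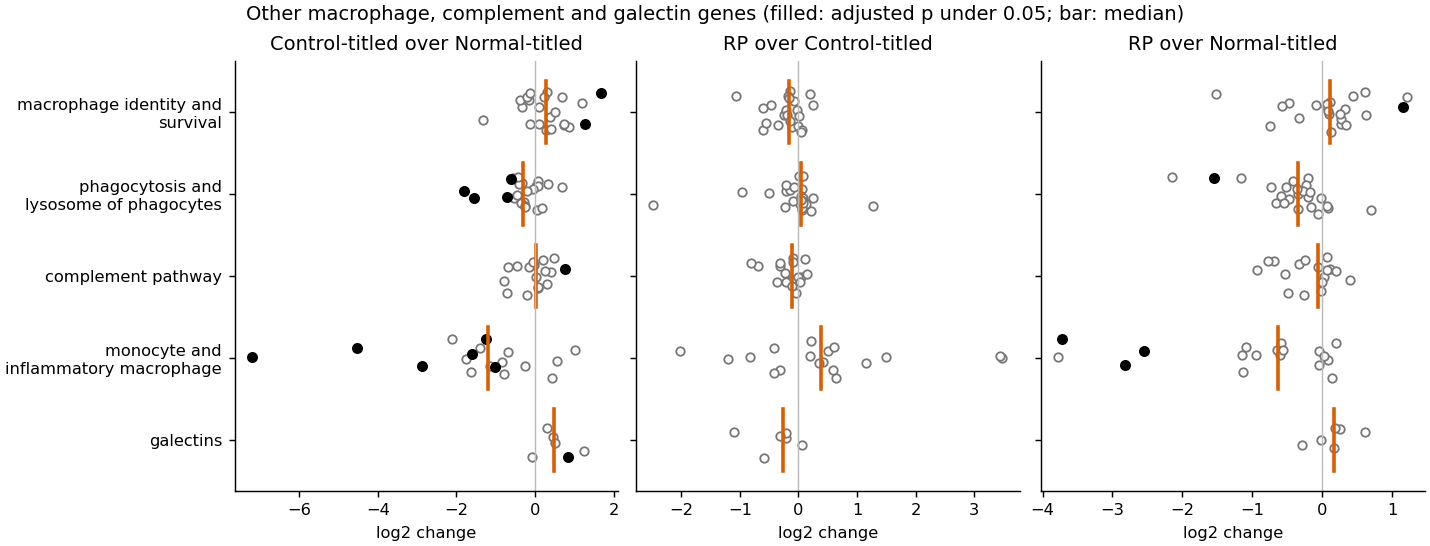
log2 change of each tested gene of 5 lists (rows) in the 3 comparisons (horizontal axes differ between panels), with filled points for an adjusted p under 0.05 in edgeR and a bar at the median of the list. In Control-titled over Normal-titled the passing genes are higher for macrophage identity (2 of 22) and lower for phagocytosis (4 of 24) and monocytes (6 of 18), and no gene passes in RP over Control-titled.

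Markers of other cells differed between the same groups. Of the neutrophil markers, 11 of 12 tested fell in Control-titled over Normal-titled. Of the erythroid markers 10 of 11 fell, where 5.45% of all tested genes did. Summed erythroid markers were at 6509 and 27880 CPM in RP 1 and 2, at 9231 to 11747 CPM in the Control-titled and at 29703 to 162174 CPM in the Normal-titled libraries. Of the fibroblast and tendon markers, 8 of 12 rose, where 4.99% of all tested genes did. Their summed CPM was 8622 and 8254 in RP, 9543 to 10423 in the Control-titled and 5435 to 8780 in the Normal-titled libraries. Folr2 and the summed fibroblast and tendon markers were both highest in the 3 Control-titled libraries, and Lgals3 and the summed neutrophil and erythroid markers were all highest in the 3 Normal-titled libraries. The part of these cells in the results was not tested. The lymphatic endothelial markers, whose cells carry Lyve1, did not pass (0 of 6 tested), and their sum was 63.2 and 71.4 CPM in RP, 69.3 to 82.2 CPM in the Control-titled and 61.6 to 109 CPM in the Normal-titled libraries. Normal 1 and Normal 3 held the highest and the lowest sum of these markers, as they did of Lyve1. Normal 3 was also the lowest of its group for all 10 members. Lyve1 was higher in both RP libraries than in the Control-titled ones (136 and 150 against 86.4 to 97.0 CPM), while these sums overlapped. Dendritic and lymphocyte markers passed for 0 of 6 tested, with sums of 5.14 to 11.7 CPM over the 8 libraries, and adipocyte markers for 0 of 8.

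**Figure D5:**
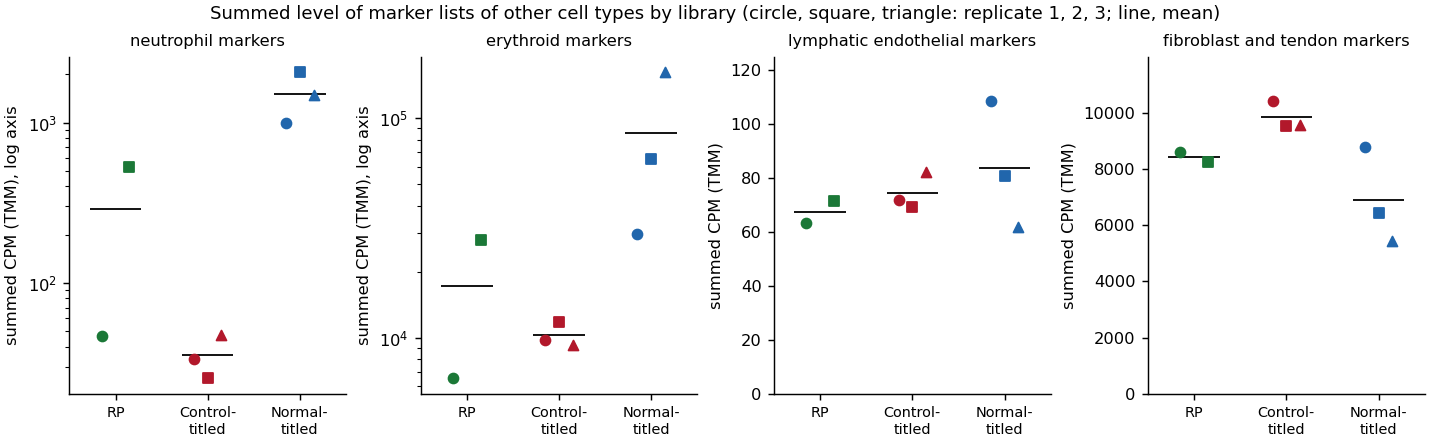
Summed level of 4 marker lists in each library as CPM after TMM scaling (log axes for neutrophil and erythroid markers, linear axes from 0 for the others), with symbols for replicates and a line at the group mean. RP 2 holds 529 CPM of neutrophil markers against 46.9 CPM in RP 1, and the Normal-titled libraries hold 1001 to 2059 CPM.

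Genes with a like pattern were sought among 9727 tested genes with a mean of at least 5 CPM, by Pearson r of log2 CPM over the 8 libraries. Closest to the mean of the 3 C1q chains were Fkbp2 (r = 0.950), Kctd17 (0.944), Id2 (0.944), Clec4a3 (0.937) and Cbfa2t2 (0.936). Closest to the mean of Folr2, Lyve1, Mrc1 and Cd163 were Serpinb1a (r = 0.9752), Syne2 (0.963), Uap1l1 (0.962), Lhfpl2 (0.959) and Pikfyve (0.958). This mean joins genes that did not share 1 pattern. Folr2 had an r of 0.10 with Lyve1, -0.0067 with Mrc1 and 0.60 with Cd163. Among Lyve1, Mrc1 and Cd163 the pairwise r was 0.72 to 0.80. Closest to Lgals3 were Maff (r = 0.987), Ech1 (0.970), Eif1a (0.969), Gngt2 (0.968) and the interleukin 4 receptor gene Il4ra (0.968). These are the highest of 9727 values over 8 points that share libraries and groups, and they describe likeness only.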

How the data were processed

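The authors deposited 1 table of raw read counts per gene symbol for each of the 8 libraries, made from 500 ng of RNA with a Lexogen QuantSeq 3' kit per the labels' protocols. Bowtie2, edgeR and build mm10 are named, with no version, in the submitters' processing notes. The counting tool, strand and annotation are not given in the sources used here. Libraries were grouped by title. Of 23282 rows, 13174 passed filterByExpr. The test was edgeR's quasi-likelihood F test (version 4.0.16, R 4.3.3) after TMM scaling, with all 8 libraries in 1 model, adjusted by Benjamini-Hochberg over the 13174 genes at 0.05. SE is the log2 change divided by the square root of F, and intervals are at 95%. A fit of 2 RP libraries assumes that they vary like the other groups. Alternatives were RLE and upper-quartile scaling, 2 other filters, DESeq2 1.42.0, limma-voom (limma 3.58.1), the 2 groups alone, a replicate block, removal of haemoglobin genes and Rn45s, and leaving out each library. Ratios were tested with scipy 1.17.1, and figures drawn with matplotlib 3.10.9. The pipeline was tested on simulated data. Positions, overlaps and shared 3' ends (50-base words in the last 500 bases) came from GENCODE M21 on the same build. The members and lists were chosen with earlier results of these data known. Named genes were the 10 members, up to 3 passing genes per list and comparison (more where a count of 6 or fewer was spelled out, chosen after their values were seen), marker checks and the 5 genes most alike each of 3 patterns. Ccl21a, on several rows, was left out.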

Additional observations from a re-analysis of the deposited data

How the results depend on the processing

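Folr2 and Lgals3 passed in Control-titled over Normal-titled under all 17 alternatives. The number of genes passing in that comparison was 1376, and 604 to 1856 when 1 library was left out, with 2 to 4 of the 10 members, 4 being without Normal 3, when Lyve1 and Mrc1 passed too. In RP over Control-titled 23 genes and 1 member passed. No filter gave 204 genes, DESeq2 112, the 2 groups alone 119 (2 members), a mean CPM of at least 5 gave 11 (0 members), limma-voom 10 (0 members), and leaving out libraries 8 to 72 (0 to 1 members). In RP over Normal-titled 330 genes and 0 members passed. No filter gave 718 genes (1 member), DESeq2 676, the 2 groups alone 101, and leaving out libraries 57 to 663 (0 to 1 members). Ratios whose groups did not overlap in RP over Normal-titled numbered 5 of 16, and 7 to 10 when a library was left out. Leaving out a library can only remove overlap, so this number could not fall. No direction of a call was reversed. The cause of the shifts in the numbers of genes passing was not tested. Same-numbered libraries had deviations from their group means that correlated at r of -0.068 to 0.080, with no sign that the numbers pair the samples. Deviations from means of 2 or 3 libraries are tied to each other, so they cannot settle this. With the replicate block 1218, 17 and 262 genes passed in Control-titled over Normal-titled, RP over Control-titled and RP over Normal-titled, with 2, 0 and 0 members. Upper-quartile scaling gave 761 higher and 615 lower genes in Control-titled over Normal-titled, against 658 and 718. Low counts limit Folr2, Adgre1 and Cd68 most, and 2 RP libraries limit both RP comparisons.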
